A study of Mus musculus with 6 samples.

Results

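The interferon-inducible GTPases of the mouse fall into the guanylate-binding proteins (GBPs) and the immunity-related GTPases (IRGs), and 10 of their genes were followed here in GC-2spd cells exposed to PM2.5. They were the GBP genes Gbp2, Gbp3, Gbp6, Gbp7 and Gbp9 and the IRG genes Iigp1, Irgm1, Irgm2, Igtp and Ifi47, matched by symbol among the 54886 genes listed. These 10 genes were chosen from their family names and from their PM2.5 and control values in these same libraries, so the difference between the groups is described below and is not tested for them. The values of control replicates 1 and 3 lay above those of all 3 PM2.5 libraries for each of the 10 genes. Without control replicate 2 this held for 19.6% of all genes tested. With all 3 controls it held for 8 of the 10 and for 6.85% of the genes tested, as control replicate 2 was below every PM2.5 library for Gbp2 and Irgm2. The mean of control replicates 1 and 3 was 2.02 times (Gbp2) to 7.39 times (Iigp1) the PM2.5 mean.

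Interferons bind receptors at the cell surface and activate kinases of the JAK family, which in turn activate STAT proteins. Type I interferon leads mainly to a complex of STAT proteins with IRF9 that binds the interferon-stimulated response element (ISRE), while interferon gamma leads to STAT complexes that bind the gamma-activated site (GAS). GBP and IRG genes are classic targets of both routes, and their proteins gather on the vacuoles of intracellular bacteria and parasites, a process that needs the ATG8 conjugation machinery of autophagy.

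GC-2spd is an immortalised mouse cell line derived from spermatocytes, with BALB/c given as the strain background. Total RNA was sequenced from 3 control libraries, kept in culture medium without particles (the study's methods add PBS), and from 3 libraries of cells exposed for 48 h to PM2.5 at 100 μg/mL, an urban dust reference material suspended in PBS. All samples come from 1 line. The study's methods speak in general of 3 experiments, but the labels do not say whether these libraries were separate cultures. The p-values therefore measure the spread between these libraries only. The values are FPKM, fragments counted on a gene divided by its exon length and by a measure of library depth, made by the authors. In bulk RNA, fewer cells that express a gene and less of its RNA in each cell cannot be told apart.

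The whole reads recovered from the FPKM came to between 16209352 and 18003204 per library. Control replicate 2 stood apart from the other libraries. Mitochondrial genes took 14.5% of its reads, against 1.65% to 1.95% in the others, and its correlation with control replicates 1 and 3 over the genes tested was 0.742 and 0.745, while those 2 libraries correlated at 0.992. The fitted differences are therefore given with and without this library. Of 14 spermatocyte and germ cell markers only Hspa2 reached a mean of 1 FPKM over the 6 libraries, Sycp3 measured 2.56 FPKM in control replicate 2 and at most 0.438 FPKM elsewhere, and 5 (Spo11, Dazl, Mael, Piwil1, Pgk2) had no read in any library, so most of the defining transcripts of the labelled cell type were at or near 0. Of 6 peritubular and fibroblast markers, Col1a1 (193.1 to 451.9 FPKM), Acta2 and Col3a1 passed that mean. Cnn1 (mean 0.986 FPKM), Tagln (0.252) and Myh11 (0.0505) did not. Of 6 Sertoli cell markers only Clu (mean 21.1 FPKM) passed it, of 6 Leydig cell markers only Star (1.86 FPKM), and of 5 endothelial markers none. Of 8 leukocyte markers, Ptprc, Adgre1, Itgam and Cd3e were at 0 in every library, and the summed level of the list was 1.13 to 15.9 FPKM in the control group and 1.44 to 2.504 FPKM in the PM2.5 group. The highest sum belonged to control replicate 2, in which Cd68 stood at 15.5 FPKM, and its part in the results was not tested.

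The IRG genes Igtp, Irgm2 and Irgm1 encode the regulatory IRGM proteins, which sit on the cell's own membranes and hold the effector IRGs in their inactive form. Their nucleotide-binding P-loop holds a methionine in place of a lysine, and it is shown here because that codon separates the 2 kinds of IRG gene. The stretches below are from the coding sequences of GENCODE M21, 5′ to 3′, with the seventh codon of the motif in capitals.
Igtp: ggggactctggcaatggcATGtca
Irgm2: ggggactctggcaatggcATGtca
Irgm1: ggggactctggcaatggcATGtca
Ifi47: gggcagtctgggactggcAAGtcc
Gbp7: ggactataccgtacgggaAAAtcc
The 24 bases were identical in Igtp (codons 91 to 98), Irgm2 (codons 83 to 90) and Irgm1 (codons 83 to 90), with methionine at the seventh place. Ifi47, Iigp1 and the 5 GBP genes had lysine there, and the stretches differ at other codons too. Over their whole coding sequences the IRG genes were 56.5% (Irgm2 and Ifi47) to 72.8% (Irgm2 and Igtp) identical.

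Igtp, also called Irgm3, had the highest FPKM of the 10 genes in each of the 6 libraries. It lies on chromosome 11 at chr11:58199556-58207591 of GRCm38, on the plus strand. Its level was 71.0, 166.2 and 60.3 FPKM in control replicates 1, 2 and 3 and 17.99, 19.7 and 20.8 FPKM in PM2.5 replicates 1, 2 and 3. All controls were above all PM2.5 libraries, and control replicate 2 was the highest, at 2.53 times the mean of the other 2 controls. The group means were 99.2 ± 58.3 and 19.5 ± 1.43 FPKM (SD, n = 3 each). On the log2(FPKM + 1) scale the difference, PM2.5 minus control, was -2.14 (SE 0.41) with all libraries and -1.70 (SE 0.12) without control replicate 2.

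Irgm2, also known as GTPI, starts next to Igtp and runs through it on the same strand (chr11:58199618-58222782). It measured 41.3, 3.91 and 33.5 FPKM in the control group and 7.64, 8.74 and 8.13 FPKM after PM2.5 exposure. Control replicate 2 was here the lowest library of all 6, below every PM2.5 library, while the other 2 controls were above all of them. The difference was -1.07 (SE 0.82) with all libraries and -2.06 (SE 0.13) without control replicate 2. The ratio of Irgm2 to Igtp was 0.581 and 0.555 in control replicates 1 and 3, between 0.390 and 0.443 in the PM2.5 libraries and 0.0235 in control replicate 2. The genes share 162 exon bases, and 15.9% of the windows of 31 bases in Igtp are also found in Irgm2. How reads in such stretches were assigned is not given in the sources used here.

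Irgm1, or LRG-47, which is also linked to autophagy and mitochondria, lies on the minus strand at chr11:48861968-48871683. It stood at 35.2, 49.5 and 32.4 FPKM in the control group and 9.34, 10.9 and 13.8 FPKM in the PM2.5 group. The groups did not overlap. Its difference was -1.69 (SE 0.25), and -1.51 (SE 0.17) without control replicate 2. The same measure gave only 2.20% for Irgm1 against all other genes.

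The promoters of these genes were searched for the ISRE (GAAANNGAAA) and the GAS (TTCNNNGAA) on both strands, from 250 bases before to 50 bases after each RefSeq start site on GRCm38.p6. Windows were found for 7 of the 10 genes and none for Gbp6, Gbp9 and Iigp1. A gene was counted if any of its windows held a match, while the shares of all windows count single windows. Gbp3 had a further window with neither motif. The ISRE was in 6 of the 7 (all but Ifi47) and in 3.44% of all 32851 windows, the GAS in 3 of the 7 (Gbp7, Igtp, Irgm2) and in 8.30% of all windows, and both together in 0.454% of all windows. The IRG stretches below are shown because Igtp and Irgm2 carry the 2 motifs side by side, as does their relative Tgtp2. They are credited to RefSeq and run 5′ to 3′ along each gene, with motif matches in capitals.
Igtp: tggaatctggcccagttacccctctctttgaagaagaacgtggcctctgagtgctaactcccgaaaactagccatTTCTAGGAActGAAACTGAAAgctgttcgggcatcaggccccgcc
Irgm2: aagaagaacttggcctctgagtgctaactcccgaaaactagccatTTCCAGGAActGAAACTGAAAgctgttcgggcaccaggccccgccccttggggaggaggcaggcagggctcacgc
Tgtp2: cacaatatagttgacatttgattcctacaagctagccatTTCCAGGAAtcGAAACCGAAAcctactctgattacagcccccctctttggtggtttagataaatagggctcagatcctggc
Irgm1: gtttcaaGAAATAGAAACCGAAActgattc
The Igtp stretch is chr11:58199436-58199555 (plus strand), the Irgm2 stretch chr11:58214857-58214976 (plus strand), the Tgtp2 stretch chr11:49064213-49064332 (minus strand) and the Irgm1 site chr11:48871428-48871457 (minus strand). In Igtp, Irgm2 and Tgtp2 the GAS began 11 bases before the ISRE. The stretches of Igtp and Irgm2 were 96.7% identical over 90 aligned bases, with 38 bases in a row the same. In Irgm1, 2 ISRE matches overlapped and no GAS match was found. A match describes letters and was not tested for binding, and the RefSeq and GENCODE start sites of Irgm2 and Irgm1 differ, the Irgm1 site lying in an exon of GENCODE M21.

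Iigp1 and Ifi47 belong to the effector IRGs, which coat and break the vacuoles of parasites. Iigp1 (Irga6, on chromosome 18) measured 15.0, 10.6 and 12.2 FPKM in the control group and 1.51, 1.72 and 2.29 FPKM in the PM2.5 group. All controls were far above all PM2.5 libraries, and control replicate 2 was the lowest control. Its mean was 12.6 ± 2.23 FPKM in the control group and 1.84 ± 0.404 FPKM in the PM2.5 group (SD, n = 3 each), a ratio of 6.85. The difference was -2.26 (SE 0.21) with all libraries and -2.36 (SE 0.16) without control replicate 2.

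Ifi47 (IRG-47 or Irgd, chr11:49076587-49096974, plus strand) measured 10.6, 5.08 and 8.61 FPKM in the control group and 3.10, 2.96 and 3.89 FPKM in the PM2.5 group. The groups did not overlap, although control replicate 2 came close to the PM2.5 libraries. The difference was -1.03 (SE 0.28), and -1.30 (SE 0.15) without control replicate 2. Its exons share 111 bases with Olfr56 on the same strand and 106 bases with Gm12188 on the opposite strand.

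**Figure D1:**
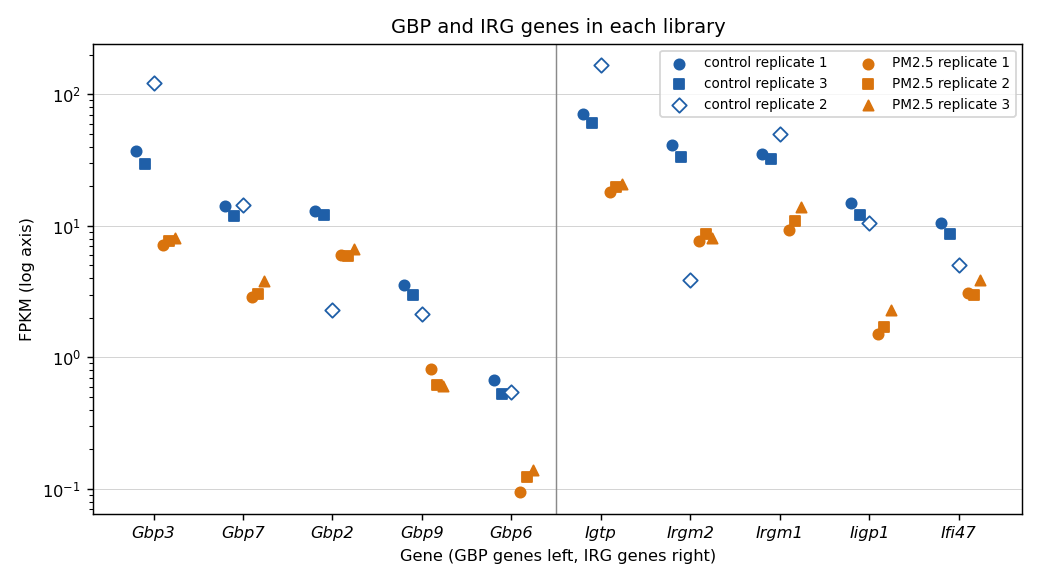
FPKM on a log axis of the 10 genes in each library, with GBP genes to the left and IRG genes to the right of the line, each in the order of their means in control replicates 1 and 3. Blue symbols are controls (open diamond, control replicate 2) and orange symbols are PM2.5 libraries. Control replicates 1 and 3 lie above all PM2.5 libraries for every gene, and control replicate 2 lies below them for Gbp2 and Irgm2. Without control replicate 2, every control was above every PM2.5 library for 19.6% of the genes tested.

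The GBP genes lie in 2 clusters, Gbp2, Gbp3 and Gbp7 on chromosome 3 and Gbp6 and Gbp9 on chromosome 5. Their proteins are large GTPases related to dynamin, which assemble into coats on bacteria and vacuoles. Their coding sequences were 63.4% (Gbp2 and Gbp9) to 90.9% (Gbp6 and Gbp9) identical. The promoter stretches of the chromosome 3 genes are shown because each holds an ISRE, as the IRG genes above do, but with other motifs around it (capitals as above).
Gbp7: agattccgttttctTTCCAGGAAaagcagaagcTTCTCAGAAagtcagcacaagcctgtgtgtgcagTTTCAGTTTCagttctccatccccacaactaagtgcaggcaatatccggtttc
Gbp3: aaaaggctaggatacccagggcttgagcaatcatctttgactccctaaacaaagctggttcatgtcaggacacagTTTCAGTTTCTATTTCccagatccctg
Gbp2: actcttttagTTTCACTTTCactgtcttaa
These are chr3:142530216-142530335 (Gbp7), chr3:142559924-142560025 (Gbp3) and chr3:142620594-142620623 (Gbp2) on the plus strand, where the ISRE reads in its reverse complement. Gbp7 had 2 GAS matches upstream of its ISRE. Gbp3 had 2 overlapping ISRE matches and Gbp2 had 1, and neither had a GAS match. The ISRE nearest to the start site began at position -53 in Gbp7, -39 in Gbp3, -59 in Gbp2, -34 in Igtp, -64 in Irgm2 and -24 in Irgm1. These positions are from RefSeq start sites, and in GENCODE M21 Gbp3 starts 18 bases and Gbp2 61 bases further upstream, so that the Gbp2 match lies in its first exon.

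**Figure D2:**
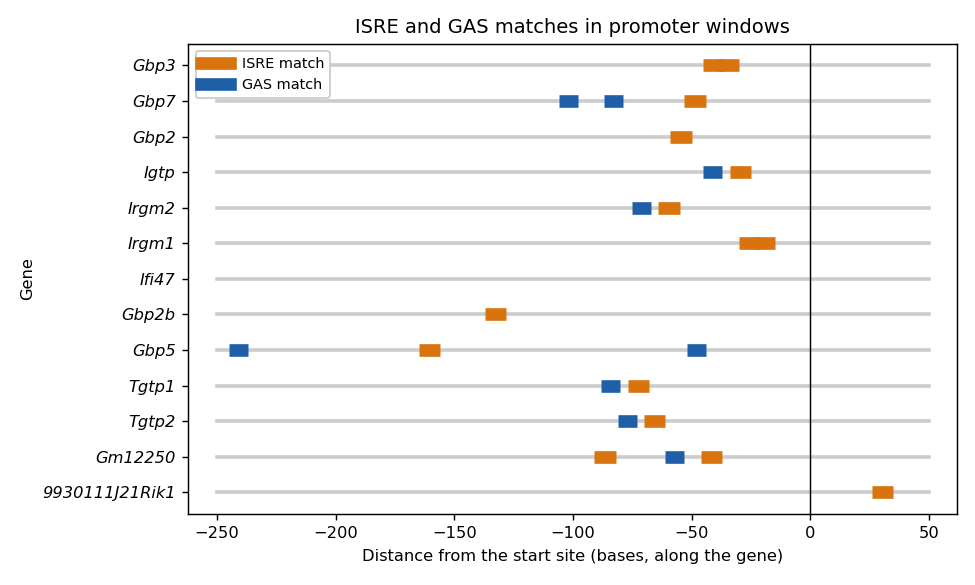
Positions of ISRE matches (orange) and GAS matches (blue) in the RefSeq windows, in bases from the start site (vertical line), for 7 of the 10 genes and 6 of their relatives (Gbp2b to 9930111J21Rik1). Each grey line is a window from 250 bases before to 50 bases after the start. In Igtp, Irgm2, Tgtp1 and Tgtp2 the GAS begins 11 bases before the ISRE, and Ifi47 has no match.

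Gbp3 was the most abundant GBP gene in every library. Its level (chr3:142560026-142573209, plus strand) was 36.9, 121.6 and 29.4 FPKM in the control group and 7.13, 7.65 and 8.05 FPKM in the PM2.5 group. The groups did not overlap, and control replicate 2 was 3.67 times the mean of the other 2 controls. The difference was -2.60 (SE 0.53) with all libraries and -1.98 (SE 0.13) without control replicate 2.

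Gbp7 (chr3:142530342-142550149, plus strand), linked to oxidative killing in phagocytes, varied least in FPKM among the controls relative to its mean. It measured 14.1, 14.3 and 11.9 FPKM in the control group and 2.87, 3.04 and 3.83 FPKM in the PM2.5 group, means of 13.4 ± 1.35 and 3.25 ± 0.514 FPKM (SD, n = 3 each). The groups did not overlap and control replicate 2 lay with the other controls. The difference was -1.77 (SE 0.19), and -1.72 (SE 0.14) without control replicate 2.

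Gbp2 (chr3:142620602-142638008, plus strand), which carries a lipid anchor and is recruited to parasite vacuoles, was the gene with the smallest difference. It measured 12.9, 2.30 and 12.2 FPKM in the control group and 6.03, 5.94 and 6.66 FPKM in the PM2.5 group. Control replicate 2 was below every PM2.5 library, so the groups overlapped with it and not without it. The difference was -0.23 (SE 0.57) with all libraries and -0.91 (SE 0.10) without control replicate 2.

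The chromosome 5 genes had the lowest FPKM. Gbp9 (chr5:105077630-105139539, minus strand) measured 3.53, 2.15 and 2.97 FPKM in the control group and 0.822, 0.621 and 0.610 FPKM in the PM2.5 group. The groups did not overlap, and the difference was -1.19 (SE 0.21), or -1.33 (SE 0.12) without control replicate 2. Gbp6 (chr5:105270702-105293698, minus strand) measured 0.670, 0.544 and 0.531 FPKM in the control group and 0.0940, 0.123 and 0.139 FPKM in the PM2.5 group, from 74, 42 and 57 reads against 10, 13 and 15 reads. Every Gbp6 control was above every PM2.5 library. Its level is uncertain, as 74.2% of its sequence, read in windows of 31 bases, is also found in other genes, above all Gm43302 and Gbp10. This share was 18.3% for Gbp9, 14.7% for Gbp7, 10.7% for Irgm2, 6.90% for Iigp1, 5.64% for Gbp3, 4.85% for Gbp2 and 3.32% for Ifi47.

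**Figure D3:**
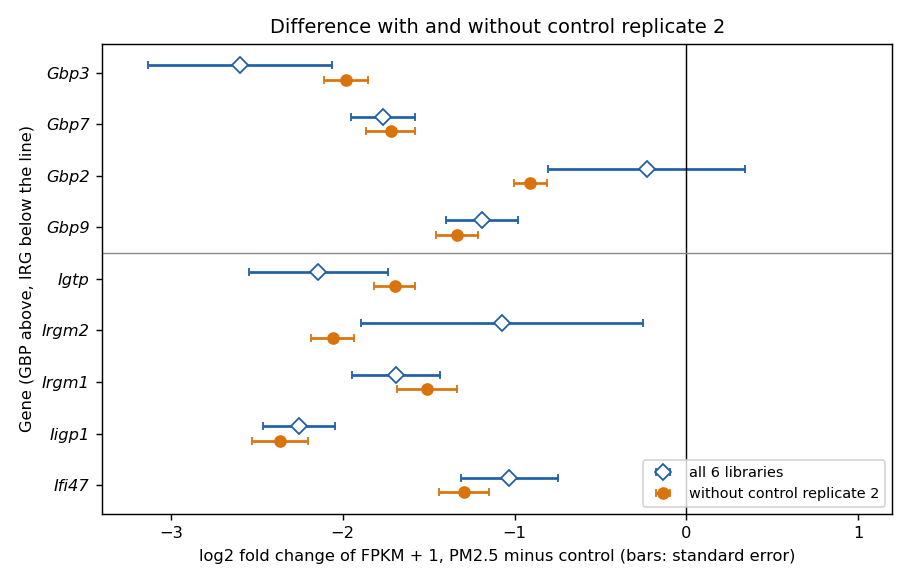
Difference in log2(FPKM + 1), PM2.5 minus control, for the 9 genes with a mean of at least 1 FPKM, with bars for the standard error. Open blue diamonds use all 6 libraries and orange circles leave out control replicate 2. Without that library all 9 lie between -2.36 and -0.91, and the standard errors of all 9 become smaller.

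Of the 10 genes, 9 passed a filter of a mean of at least 1 FPKM over the 6 libraries, Gbp6 being the exception. Gbp9 passed it through the controls, with a PM2.5 mean of 0.684 FPKM. The limma test over all 11884 genes that passed called 7 genes lower (0.0589%) and 4 higher (0.0337%) after PM2.5 exposure at an adjusted p under 0.05, and 451 at an unadjusted p under 0.05. Without control replicate 2 it called 84 lower (0.707%) and 34 higher (0.286%). At an unadjusted p under 0.05 it gave 1.88% of the genes lower and 1.92% higher with all libraries, and 7.63% lower and 8.23% higher without control replicate 2. Leaving out any other single library left 0 genes called by limma, with 197 to 627 at an unadjusted p under 0.05. The 9 genes were among those called lower once (Iigp1) with all libraries and in all 9 cases without control replicate 2. Every control library was above every PM2.5 library for 7 of the 9 and for 6.85% of the genes tested, and without control replicate 2 for all 9 and for 19.6%. Because the 10 genes were selected on this contrast, nothing is read from these counts. The median difference of the 9 was -1.69, and -1.70 without control replicate 2, against 0.02 and -0.01 over the genes tested.

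The medians of the GBP and IRG genes lay close together. The median was -1.48 over 4 GBP genes and -1.69 over 5 IRG genes with all libraries, and -1.53 and -1.70 without control replicate 2. The GBP genes ran from -1.98 (Gbp3) to -0.91 (Gbp2) and the IRG genes from -2.36 (Iigp1) to -1.30 (Ifi47) without that library, so the ranges overlapped. The sign of the difference between the medians, 0.21 on the log2(FPKM + 1) scale, turned with the pseudocount, as it was -0.20 with a pseudocount of 0.1. The difference is a description, since genes are not replicates.

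The summed level of the 5 GBP genes was 68.0, 141.0 and 57.0 FPKM in the control group and 16.9, 17.4 and 19.3 FPKM in the PM2.5 group. The sum of the 5 IRG genes was 173.1, 235.3 and 146.9 FPKM and 39.6, 44.0 and 49.0 FPKM. Both sums were highest in control replicate 2 and did not overlap between the groups. Igtp made up 41.0% of the IRG sum in control replicates 1 and 3 and 42.5% to 45.4% in the PM2.5 libraries, while Gbp3 made up 51.7% to 54.2% and 41.7% to 44.0% of the GBP sum. In control replicate 2 these shares were 70.6% and 86.3%.

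The order of the levels in FPKM, which depends on the exon length used for each gene, differed at some places between the groups. All annotated exons count, 5810 bases for Irgm1 and 2022 for Igtp. Their transcripts with the longest coding sequence have 2259 and 2022 bases. Irgm1 had more reads than Igtp in control replicates 1 and 3 (3798 and 3390 against 2666 and 2198) and in every PM2.5 library. In control replicates 1 and 3 it was Igtp (mean 65.7 FPKM), Irgm2 (37.4), Irgm1 (33.8), Gbp3 (33.1), Iigp1 (13.6), Gbp7 (12.97), Gbp2 (12.5), Ifi47 (9.60), Gbp9 (3.25) and Gbp6 (0.600). The values of Irgm2, Irgm1 and Gbp3 overlapped from one to the next, as did those of Iigp1, Gbp7 and Gbp2. In the PM2.5 group the order was Igtp (19.5), Irgm1 (11.3), Irgm2 (8.17), Gbp3 (7.61), Gbp2 (6.21), Ifi47 (3.32), Gbp7 (3.25), Iigp1 (1.84), Gbp9 (0.684) and Gbp6 (0.119), with overlap between Irgm2 and Gbp3 and between Ifi47 and Gbp7. With control replicate 2 included, the control order was Igtp (99.2), Gbp3 (62.6), Irgm1 (39.0), Irgm2 (26.2), Gbp7 (13.4), Iigp1 (12.6), Gbp2 (9.11), Ifi47 (8.09), Gbp9 (2.88) and Gbp6 (0.581), and the genes from Igtp to Ifi47 overlapped from one to the next.

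Control replicate 2 split both families. Against the mean of the other 2 controls its FPKM were higher for Gbp3, Igtp, Irgm1 and Gbp7. They were lower for Gbp2, Irgm2, Ifi47, Gbp9 and Iigp1, and the difference ran from 1.85 (Gbp3) to -2.96 (Irgm2) on the log2(FPKM + 1) scale. The 10th and 90th percentiles of the same difference over all genes tested were -1.49 and 1.68, and 41.1% of them differed by more than 1. Gbp3, Gbp2, Irgm2 and Igtp, 4 of the 9, did so. Whether the RNA or the handling of this library set these values was not tested. Its FPKM imply a depth divisor of 12971306 for 16209352 recovered reads. In every other library the divisor was above the recovered reads, so FPKM in control replicate 2 were raised relative to the others. Gbp7 took 1044 of 16209352 reads there, against 1465 of 18003204 and 1202 of 17511458 in control replicates 1 and 3. As a share of reads Gbp7 was thus lower there, not higher. Control replicate 1 was above control replicate 3 in all 9 genes, by 0.08 to 0.31 with a median of 0.23. Over all genes tested the median of that difference was -0.0007.

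The other genes of the families were mostly low. Gbp2b, formerly Gbp1, measured 3.68, 1.15 and 3.30 FPKM in the control group and 1.45, 1.36 and 1.67 FPKM in the PM2.5 group. It was called lower without control replicate 2 (difference -0.85, SE 0.11, adjusted p = 0.0481) and not with it (-0.50, SE 0.33, adjusted p = 0.875). Gbp5, a GBP linked to the inflammasome, stayed below the filter at 1.09, 0.755 and 1.18 FPKM in the control group and 0.253, 0.212 and 0.267 FPKM in the PM2.5 group. Its groups did not overlap. Gbp4 had 18, 28 and 13 reads in the control group and 2, 3 and 2 reads in the PM2.5 group. Gbp8, Gbp10 and Gbp11 had at most 2, 1 and 1 reads in any library, under the floor of 3 reads.

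Among the other IRG genes, Gm12250 (Irgb10), an effector that acts with GBPs on bacteria, measured 2.66, 0.847 and 2.09 FPKM in the control group and 0.132, 0.310 and 0.478 FPKM in the PM2.5 group. Gm4951 measured 3.30, 0.350 and 2.495 FPKM and 0.275, 0.384 and 0.356 FPKM. Both were called lower without control replicate 2, Gm12250 by -1.37 (SE 0.17, adjusted p = 0.0455) and Gm4951 by -1.54 (SE 0.14, adjusted p = 0.0201), and neither was called with it (adjusted p = 0.875 for both). In Gm4951, control replicate 2 fell among the PM2.5 libraries. Both genes passed the filter through the controls only, with PM2.5 means of 0.306 (Gm12250) and 0.338 FPKM (Gm4951), which favours a lower call. The PM2.5 values of Gm12250 came from 3, 7 and 11 reads.

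Tgtp2 measured 2.24, 3.18 and 1.76 FPKM in the control group and 0.895, 0.882 and 0.904 FPKM in the PM2.5 group. Its groups did not overlap, but it was not called (adjusted p = 0.717, and 0.103 without control replicate 2), and 90.5% of its windows of 31 bases are also found elsewhere, mainly in Tgtp1. Tgtp1 had 20, 7 and 23 reads and 5, 7 and 1 reads, so control replicate 2 equalled a PM2.5 library in reads. F830016B08Rik had 29, 0 and 18 reads in the control group and 0, 1 and 0 reads in the PM2.5 group, and 9930111J21Rik1 had 5, 0 and 6 reads against 0 in each PM2.5 library. For 9930111J21Rik2 the reads were 27, 8 and 22 against 11, 15 and 15, with overlap. Irgc1, a testis IRG, had reads in control replicate 2 only, 5 in number. Irgq, a divergent IRG gene, measured 3.88, 3.33 and 4.08 FPKM and 4.40, 4.66 and 3.18 FPKM, with a difference of 0.08 (SE 0.19, adjusted p = 0.907), and 0.02 (SE 0.16, adjusted p = 0.969) without control replicate 2.

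The pathway upstream and beside the GTPases was described with lists of genes, chosen with earlier results of these data known. Of 21 interferon ligands none reached 1 FPKM in any library, and 18 had 0 reads in all 6, which allows up to 3 reads in each. Ifnb1 had 0, 8 and 2 reads in the control group and 2, 0 and 0 in the PM2.5 group, Ifnz at most 2 reads and Ifna4 1 read. Of 9 receptor and kinase genes 8 were tested, Ifnlr1 being below the filter, and limma called none, with or without control replicate 2. At an unadjusted p under 0.05, 0 were lower with all libraries and 2 without control replicate 2, Jak1 and Ifngr1 (7.63% of all genes tested). Their median difference was 0.03, and 0.01 without that library. The kinase Jak1 measured 53.1, 9.96 and 51.0 FPKM in the control group and 39.3, 41.8 and 46.5 FPKM in the PM2.5 group. Ifngr1 and Ifngr2 encode the receptor chains for interferon gamma. Ifngr1 measured 38.4, 23.5 and 33.7 FPKM in the control group and 26.0 to 30.8 FPKM in the PM2.5 group. Its control replicate 2 was below every PM2.5 library and the other controls were above them. Ifngr2 measured 18.3 to 19.5 FPKM in the control group and 17.9 to 21.7 FPKM in the PM2.5 group.

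Of 9 STAT and IRF factors tested with limma, none was called with all libraries. At an unadjusted p under 0.05, 5 were lower (1.88% of all genes tested). Without control replicate 2, 4 were called lower (0.707% of all genes tested). Among these were Stat2 (difference -1.35, SE 0.15), Irf7 (-1.81, SE 0.19) and Irf9 (-1.09, SE 0.10), with adjusted p of 0.0349, 0.0316 and 0.0206. With all libraries their differences were -2.30 (SE 0.79), -2.58 (SE 0.66) and -0.99 (SE 0.19), with adjusted p of 0.875, 0.711 and 0.372. Stat2 reached 141.3 FPKM in control replicate 2, against 21.5 and 16.3 FPKM in the other controls and 6.43 to 7.35 FPKM in the PM2.5 group. The median of the 9 was -0.79, and -0.43 without control replicate 2.

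Among 24 tested targets typical of type I interferon, 5 were called lower with all libraries (Ifi44, Ifit3b, Oasl2, Rtp4 and Usp18), against 0.0589% of all genes tested. Without control replicate 2, 21 were called lower, against 0.707% of all genes tested, and in neither fit was a target called higher. None of them was called when any other single library was left out. The others called without that library were Cmpk2, Ddx58, Dhx58, Ifih1, Ifit1, Ifit3, Irf7, Isg15, Mx2, Oas1a, Oas2, Oas3, Parp14, Rsad2, Stat2 and Xaf1. The list shares Stat2, Irf7 and Usp18 with the factor and inhibitor lists. The median was -1.97 with all libraries and -1.83 without control replicate 2. Isg15, a protein tag joined to others, measured 361.1, 1944.2 and 302.5 FPKM in the control group and 59.3, 59.3 and 64.3 FPKM in the PM2.5 group. Usp18, which removes that tag and restrains the type I receptor, measured 36.2, 29.0 and 34.4 FPKM and 7.72, 8.28 and 7.93 FPKM, a difference of -1.92 (SE 0.18, adjusted p = 0.0426) with all libraries and -2.01 (SE 0.09, adjusted p = 0.00757) without control replicate 2. It was the only inhibitor called of 7 tested. The dynamin-like Mx2 measured 4.95, 11.8 and 4.20 FPKM and 0.573, 0.639 and 0.597 FPKM and was called without control replicate 2 (-1.80, SE 0.11, adjusted p = 0.00892) and not with it (-2.20, SE 0.36, adjusted p = 0.272). The other dynamin-like genes tested, Atl2 and Atl3, were not called.

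Of 11 targets typical of interferon gamma tested with limma, none was called with all libraries. At an unadjusted p under 0.05, 4 were lower (1.88% of all genes tested). Without control replicate 2, 1 was called lower (0.707% of all genes tested), the chemokine Cxcl10 (-1.83, SE 0.22, adjusted p = 0.0450). With all libraries its difference was -1.84 (SE 0.24, adjusted p = 0.121). Cxcl10 measured 101.9, 97.8 and 91.5 FPKM in the control group and 21.7, 24.1 and 35.0 FPKM in the PM2.5 group. The groups did not overlap. The median of the list was -0.87, and -0.30 without control replicate 2. Irf1, a factor induced by interferon gamma, measured 12.5, 24.9 and 10.6 FPKM and 12.1, 12.5 and 8.91 FPKM, with overlap.

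The partners of the GTPases were not called. With limma, the 10 ATG8 conjugation genes had a median of 0.14, and 0.01 without control replicate 2, and 1 was higher at an unadjusted p under 0.05 without that library (8.23% of all genes tested). Gabarap, the most abundant, measured 110.2, 43.5 and 113.2 FPKM in the control group and 163.4, 181.6 and 147.6 FPKM in the PM2.5 group. Its PM2.5 libraries were above all controls (difference 0.99, adjusted p = 0.875, and 0.55 and 0.138 without control replicate 2). Gabarapl1 and Atg5 measured 29.9, 21.1 and 30.9 FPKM and 40.3, 13.3 and 38.5 FPKM in the control group, against 34.4 to 35.2 and 24.3 to 40.7 FPKM in the PM2.5 group. Of 10 inflammasome genes 3 were tested (Casp1, Gsdmd, Il18), and none was called or reached an unadjusted p under 0.05. Gsdmd, the pore protein of pyroptosis, measured 33.6, 70.4 and 31.9 FPKM and 34.7, 35.0 and 35.0 FPKM. Il18 lay between 1.09 and 3.29 FPKM and Casp1, which cleaves its product, between 0.593 and 2.42 FPKM, with overlap in both.

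**Figure D4:**
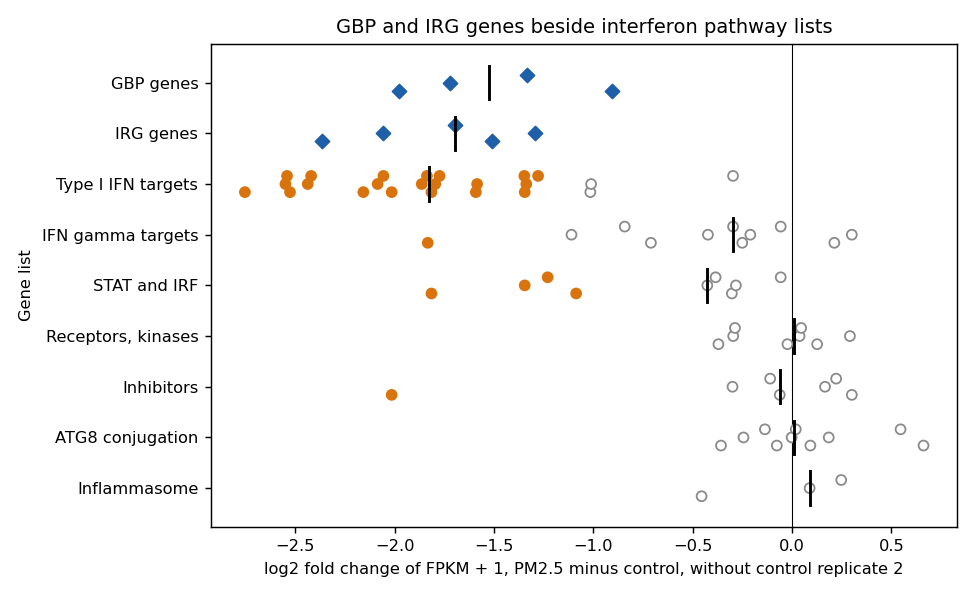
Difference in log2(FPKM + 1), PM2.5 minus control, without control replicate 2, for each gene tested in a list. Blue diamonds are the GBP and IRG genes, orange circles other genes called lower by limma at an adjusted p under 0.05 and open circles genes not called, and black bars are medians. The medians of the GBP and IRG genes are -1.53 and -1.70, and that of the type I targets is -1.83. Interferon gamma targets have a median of -0.30, STAT and IRF factors -0.43, inhibitors -0.06 and inflammasome genes 0.09. Those of the receptors and of the ATG8 genes lie at 0.01. The genes and lists were chosen with earlier results of these data known.

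The genes whose pattern over the 6 libraries was most like the mean of the 9 GTPase genes on the log2(FPKM + 1) scale were Slfn8 (Pearson's r = 0.997), Oasl2 (0.996), Ddx60 (0.995), Usp18 (0.994) and Thbs2 (0.992). The 6 points are libraries of 2 groups, so r mainly follows the difference between them, and r was computed only with all 6. Slfn8 is a member of the Schlafen family, Oasl2 belongs to the oligoadenylate synthetases, Ddx60 is a helicase and Thbs2 a protein of the extracellular matrix. Slfn8 had means of 16.8 and 5.51 FPKM in the control and PM2.5 groups, and Thbs2 of 34.5 and 17.5 FPKM. Of the 9 genes themselves, Iigp1 followed the mean of the other 8 most closely (r = 0.999) and Gbp2 (0.203) and Irgm2 (0.466) least.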

How the data were processed

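RNA was sequenced from 6 libraries of GC-2spd cells, 3 control and 3 PM2.5 (100 μg/mL, 48 h), grouped by the sample titles. The authors deposited FPKM for 54886 genes per library, and the submitters' processing notes name HISAT2 2.0.5 and featureCounts 1.5.0-p3 with the build mm9. The authors called differential expression with DESeq2, which needs counts. The main test here used the deposited FPKM. Reads recovered from the FPKM, described next, were tested only as an alternative (voom), which called 0 genes against 11 in the main test. Gene lengths of GENCODE M21 (GRCm38), which gave a symbol and length to 54495 genes, turned the FPKM of 96.7% of 25249 expressed genes into whole reads in every library (within 0.02 reads). These reads gave the depth and a floor of 3 reads. Positions are from M21 and not from mm9.

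The main test was limma 3.58.1 in R 4.3.3 (trend and robust) on log2(FPKM + 1) over genes with a mean of at least 1 FPKM, without covariates. Fold changes on this scale understate changes of low genes. Genes with a PM2.5 mean under 1 FPKM passed the filter through the controls, which favours calls lower. Among them were Gbp9, Tgtp2, Gm12250, Gm4951, Mx2, Ifi44 and Ddx60. Calls used a Benjamini-Hochberg adjusted p under 0.05. The fit was also run on simulated libraries with known changes, all drawn alike. They held no outlying library, so that run cannot tell how the fit behaves with control replicate 2.

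The 10 GTPase genes, the other lists and their tests were chosen with earlier results of these data known. Genes named are the 10, all other GBP and IRG genes, the called genes of each list or its 3 most abundant, and the 5 with the highest r with the mean of the 9 GTPase genes. The values of 1 gene among those called are not reported here. Irf1, Atl2 and Atl3 were named after their values were seen. Alternatives were other filters (no filter, at least 10 reads in every library), a pseudocount of 0.1, scaling to recovered totals, voom on recovered reads, a replicate block and leaving out each library. A comparison of RefSeq proteins was planned, and coding sequences of GENCODE M21 were used in its place. Identity counts aligned bases without gaps. Promoter stretches were printed outside M21 exons, or as 30 bases around the match.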

Additional observations from a re-analysis of the deposited data

How the results depend on the processing

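Control replicate 2 decided most counts. Leaving out each library in turn gave 0 to 118 genes called, 0 to 9 of the GTPase genes and 0 to 27 genes of the family and pathway lists, and every count above 0 came from leaving out control replicate 2, against 11, 1 and 5 with all libraries. The median difference of the GTPase genes ran from -1.83 to -1.57 in those fits, and that of the GBP minus the IRG genes from 0.09 to 0.35. The difference of Gbp2 ran from -0.91 without control replicate 2 to positive values, 0.13 without control replicate 1 and 0.09 without control replicate 3, each of which leaves control replicate 2 as 1 of 2 controls.

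With no filter limma called 0 genes (875 at an unadjusted p under 0.05), 0 GTPase genes and 0 list genes, and with at least 10 reads in every library 1, 0 and 1 (527 unadjusted). In both fits, which include Gbp6, the GTPase median was -1.44 and the GBP minus IRG difference 0.50. Scaling to recovered totals called 6, 0 and 3, and voom on recovered reads 0 (403 unadjusted), 0 and 0. The GTPase median was -1.91 with a pseudocount of 0.1 and -1.92 with voom, where the GBP minus IRG difference reversed to -0.20 and -0.28. The cause of the changed counts was not tested. Of 109 values of single GTPase genes under these alternatives, 102 kept their direction within the spread between replicates, 5 moved further down and 2 reversed (Gbp2, above). The other filters and the replicate block leave the difference of a single gene unchanged by construction, so their values could only count as kept. The spread includes control replicate 2 and was wide for Irgm2 (1.21) and Gbp2 (0.83). A shift of Irgm2 from -1.07 to -2.06 without that library therefore counted as kept.

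With the replicate block limma called 0 genes (335 unadjusted), 0 GTPase genes and 0 list genes. Whether the replicate numbers mark pairs is not stated. In deviations from the group means, the correlation of same-numbered libraries was -0.28, 0.18 and 0.25 for replicates 1, 2 and 3. Control replicate 1 correlated best with PM2.5 replicate 3. Control replicates 1 and 3 gave like values with PM2.5 replicate 3 (0.29 and 0.25) and control replicate 2 the opposite (-0.28). Such values mostly follow control replicate 2 and cannot settle the pairing. Low reads limit Gbp6 and most other GBP and IRG genes.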
